A study of Homo sapiens with 7 samples.

Results

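The ends of a directed differentiation were compared by open chromatin: pharyngeal foregut endoderm (hPFE, 1 library) against undifferentiated embryonic stem cells of the same human line (hESC, 2 libraries). The comparison takes 3 of the 7 libraries of the series, chosen by their titles. All 7 were made from H1, an established human embryonic stem cell line, with no genetic change given in the labels, and the other 4 are the intermediate stages, definitive endoderm (hDE) and anterior foregut endoderm (hAFE), with 2 libraries each. The assay was ATAC-seq, in which a transposase inserts sequencing adapters into accessible DNA, so that a peak of insertions marks an open region. Per the labels hESC and hDE reuse data of another series, unlike hAFE and hPFE, so stage and source of the library cannot be told apart in any difference below. All cells come from 1 line, the labels do not say whether the replicates are separate cultures, and they give neither the agents nor the days of the differentiation.

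Pharyngeal endoderm is the foregut epithelium that lines the embryonic pharynx, forms the pharyngeal pouches and gives rise to thymus, parathyroid and parts of the thyroid and middle ear. PAX9, PAX1, TBX1, EYA1 and TP63 are among the transcription factors known for it. Embryonic stem cells depend on POU5F1 (OCT4), SOX2 and NANOG, which bind many of the enhancers that are open in them. Enhancers open and close between cell types far more readily than the CpG-rich starts of widely used genes, so a comparison of distant cell types is mostly a comparison of elements away from gene starts.

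Each deposited list held about the same number of peaks, 298508 in hPFE and 299100 and 299333 in hESC replicates 1 and 2. The background, in pileup counts, was worked out from each peak's fold and p-value as a stand-in for depth and was 5.66 in hPFE and 2.11 and 4.62 in hESC. Summit heights below are the pileup at the summit divided by that background. The hPFE library had the flattest peaks of the 3: the median height of its 50000 strongest regions was 11.7 times background, against 13.3 and 23.2 in hESC, and its highest summit was 98.2 times background, against 144 and 184. Its list also reached lower, to summits of 2.47 times background, against 3.32 and 3.46 in hESC. Around 8 stem cell markers 14 strict regions lay in hPFE, against 35 and 41 in hESC, and around 8 endoderm markers 35, against 21 and 27. Of the 8 stem cell markers 5 had a start. At the 1 start used per gene, NANOG, DPPA4 and DNMT3B had no peak within 1 kb in hPFE and one in both hESC libraries. SOX2 and CRIPTO kept one in hPFE, of 17.1 and 11.8 times background, against 24.6 and 47.8 and 13.7 and 35.7 in hESC. Neural markers had 18 strict regions in hPFE, against 35 and 35, cardiac markers 24, against 26 and 27, and blood markers 32, against 33 and 32.

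The regions that changed at gene starts are the ones whose sequence can be shown, since promoter windows of RefSeq (GRCh38.p14, the build hg38 of the files) run from 250 bases before to 50 bases after a start. The first 3 lie at starts that were open in both hESC libraries and had no peak in hPFE. In capitals are the short motifs searched for on either strand, except the frequent E-box and CTCF core letters, named with their position, which counts back from the base before the start as −1. The NANOG window (chr12:7789152-7789451, plus strand) holds the OCT letters (ATGCAAA, here on the minus strand) at −120 directly beside the SOX letters (ACAATG) at −112. It also holds HOX-MEIS letters (TGATTNA) at −236 and TATA letters (TATAAA) at −1, running across the start. The SOX3 window (chrX:140505020-140505319, minus strand) holds HOX-MEIS letters at −94, and the OTX2 window (chr14:56805618-56805917, minus strand) TEAD letters (GGAATG) at −237 and GATA letters (AGATAA) at −115.
NANOG: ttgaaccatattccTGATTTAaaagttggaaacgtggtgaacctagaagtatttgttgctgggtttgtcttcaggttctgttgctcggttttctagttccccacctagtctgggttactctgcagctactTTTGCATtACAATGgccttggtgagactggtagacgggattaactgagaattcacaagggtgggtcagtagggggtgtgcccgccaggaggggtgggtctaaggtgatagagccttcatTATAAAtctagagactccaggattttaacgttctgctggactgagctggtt
SOX3: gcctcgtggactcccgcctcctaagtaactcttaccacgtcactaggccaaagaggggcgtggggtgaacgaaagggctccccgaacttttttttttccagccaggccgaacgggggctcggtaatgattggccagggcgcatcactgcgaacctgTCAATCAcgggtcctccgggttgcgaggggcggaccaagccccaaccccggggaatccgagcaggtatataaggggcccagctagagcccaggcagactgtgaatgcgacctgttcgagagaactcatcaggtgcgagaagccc
OTX2: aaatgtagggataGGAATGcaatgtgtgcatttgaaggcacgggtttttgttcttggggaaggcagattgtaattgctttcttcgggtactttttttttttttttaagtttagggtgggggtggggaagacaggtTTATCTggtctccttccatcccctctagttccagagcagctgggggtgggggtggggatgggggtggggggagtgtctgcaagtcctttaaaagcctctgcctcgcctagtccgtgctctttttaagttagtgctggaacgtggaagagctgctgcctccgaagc

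The next 4 windows lie at starts open in hPFE with no peak in either hESC library. RBPJ (chr4:26342890-26343189, plus strand) carries the AP-1 letters (TGANTCA) at −250, TATA letters at −160 and SOX letters at −69. GATA3 (chr10:8054438-8054737, plus strand) holds none of the capitalised kinds of motif and is the most GC-rich of them, with 69.3% G and C. SERPINB7 (chr18:63775168-63775467, plus strand) and SCEL (chr13:77535456-77535755, plus strand) were chosen after their values were seen, as the strongest gained starts with the AP-1 letters, and only those letters are in capitals in them.
GATA3: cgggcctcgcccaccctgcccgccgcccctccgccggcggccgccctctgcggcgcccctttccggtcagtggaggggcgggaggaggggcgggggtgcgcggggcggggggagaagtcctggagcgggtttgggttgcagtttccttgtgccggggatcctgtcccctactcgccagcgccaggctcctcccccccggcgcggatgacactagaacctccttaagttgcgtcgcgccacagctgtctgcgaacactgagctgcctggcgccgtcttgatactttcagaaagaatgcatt
RBPJ: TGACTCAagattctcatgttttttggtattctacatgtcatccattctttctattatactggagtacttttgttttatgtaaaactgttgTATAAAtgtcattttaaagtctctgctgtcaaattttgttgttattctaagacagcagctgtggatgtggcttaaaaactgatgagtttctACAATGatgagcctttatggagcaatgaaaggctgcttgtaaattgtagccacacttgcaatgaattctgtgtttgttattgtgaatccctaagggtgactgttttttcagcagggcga
SERPINB7: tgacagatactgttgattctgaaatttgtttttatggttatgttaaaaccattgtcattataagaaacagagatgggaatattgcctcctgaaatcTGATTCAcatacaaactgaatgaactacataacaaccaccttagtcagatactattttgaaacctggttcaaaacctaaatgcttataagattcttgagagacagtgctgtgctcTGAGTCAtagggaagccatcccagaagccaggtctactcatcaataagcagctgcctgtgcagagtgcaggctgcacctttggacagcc
SCEL: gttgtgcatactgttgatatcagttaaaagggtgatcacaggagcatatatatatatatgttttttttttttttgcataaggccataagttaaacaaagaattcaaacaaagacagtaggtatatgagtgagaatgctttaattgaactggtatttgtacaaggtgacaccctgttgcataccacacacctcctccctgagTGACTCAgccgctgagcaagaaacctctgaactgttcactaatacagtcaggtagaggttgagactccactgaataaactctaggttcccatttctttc

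Many regions had a strong peak in hPFE and none in hESC, or the reverse. Strict regions were the 50000 with the highest −log10 p of each library, and those of all 7 libraries merged to 129718 regions. A region was called gained if it was strict in hPFE and neither hESC list had any peak there, which held for 17319 (13.4%). It was called lost if it was strict in both hESC libraries and hPFE had no peak, which held for 8582 (6.62%). Another 18647 (14.4%) were strict in all 3 libraries and are called stable. A further 8521 regions were strict in both hESC libraries and had a weaker peak in hPFE.

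No test was made: with 1 library against 2 an exact permutation test cannot give a p-value under 1 in 3, and the spread between the hESC replicates is given in its place. There were 20532 regions strict in hPFE without a peak in hESC replicate 1 and 19585 without one in replicate 2. In the other direction, 15906 and 15871 regions strict in hESC replicates 1 and 2 had no peak in hPFE. The hESC replicates differed from each other in the same way at 1040 and 2137 regions, so each difference between the stages was several times the difference between the replicates. The excess of gained over lost regions depended on how strict regions were taken: with a summit of at least 10 times background in place of the rank, 7818 regions were gained and 7284 lost. In bulk samples fewer cells with an open region and less opening in each cell cannot be told apart.

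**Figure D1:**
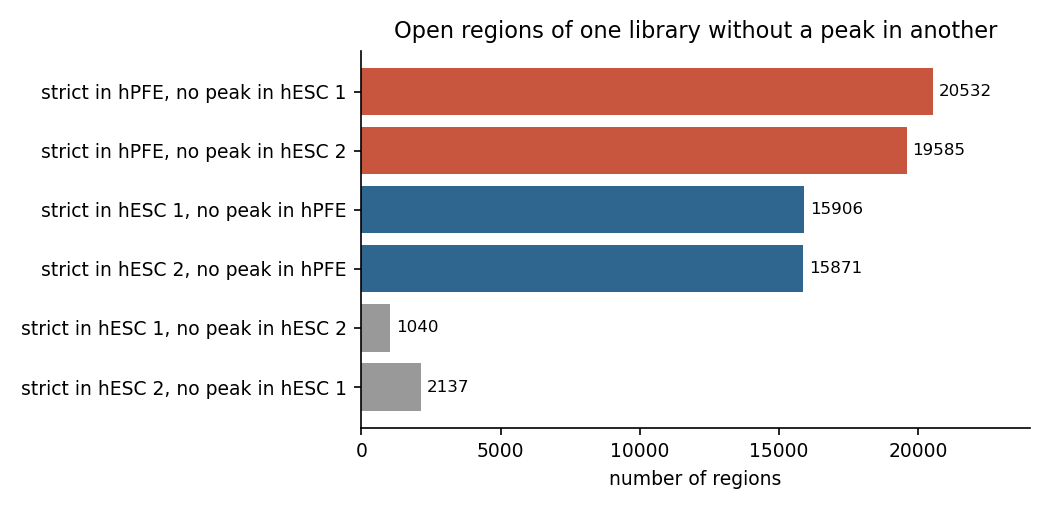
Number of regions (horizontal axis) that were strict in 1 library and had no peak in another, for hPFE against each hESC library (red), each hESC library against hPFE (blue) and the hESC replicates against each other (grey). The stage differences run from 15871 to 20532 regions, the replicate differences are 1040 and 2137.

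The heights of both classes are fixed in part by the strict rank that selected them and are given as a description. The median summit of lost regions was 11.8 times background in hESC replicate 1 and 19.5 in replicate 2. Gained regions had a median summit of 9.36 times background in hPFE, with a quartile range of 7.42 to 12.7. Whether a region without a peak was closed or too weak for the list was not tested. The last region inside the strict rank and the first outside it had summits of 5.83 and 5.83 times background in hPFE. In hESC they had 7.11 and 7.11 in replicate 1 and 19.9 and 20.3 in replicate 2. The rank goes by −log10 p, so these are not cuts of height. The lowest summit of a strict region in hESC replicate 2 was 11.3 times background.

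Many gained regions had no peak at the intermediate stages, and many lost regions still had one there. Both classes rest on the 1 hPFE library, so a late change and a trait of that library cannot be told apart. The shares also changed with the rule, as given at the end. Of the gained regions 17.0% and 21.7% had a peak in hDE replicates 1 and 2 and 35.1% and 36.8% in the hAFE replicates. No hDE or hAFE library had a peak at 8095 gained regions (46.7%), and all 4 had one at 1267 (7.32%). Of the lost regions 75.0% and 79.8% still had a peak in hDE and 63.8% and 67.3% in hAFE. All 4 intermediate libraries had a peak at 4123 lost regions (48.0%), and none had one at 793 (9.24%). Those 793 regions were thus seen in hESC only.

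**Figure D2:**
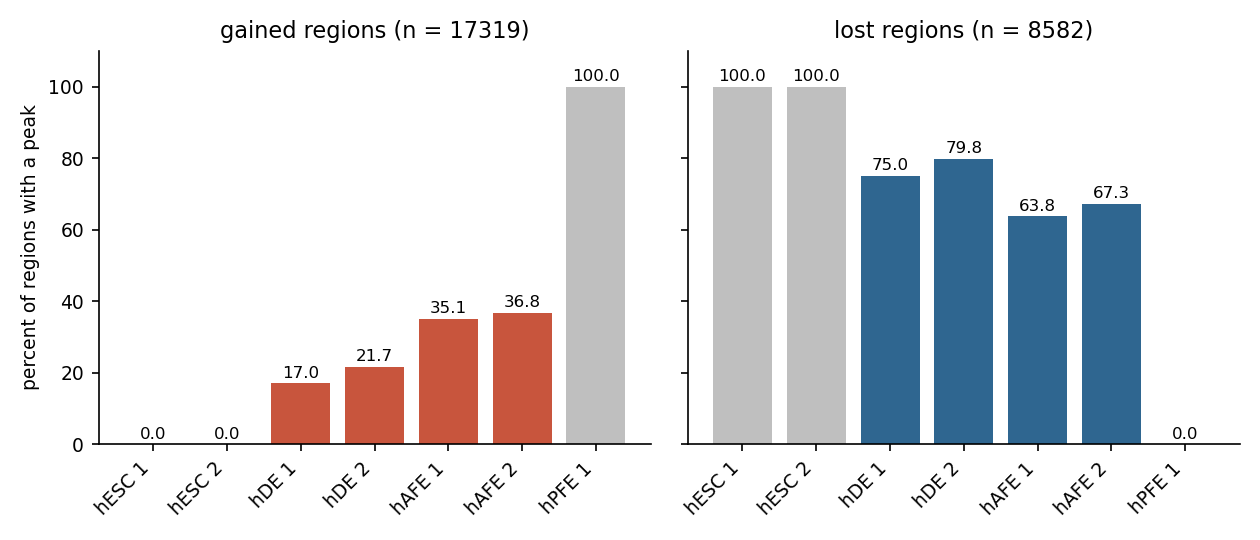
Percent of gained (left) and lost (right) regions with a peak (vertical axis) in each of the 7 libraries, in the order of the stages. Grey bars are fixed by the definition of the 2 classes, coloured bars are the libraries that the definition did not use, where gained regions reach 36.8% at most and lost regions stay at or above 63.8%.

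Summit heights at these regions gave no order of the stages. Among gained regions with a peak there, the median summit was 4.15 and 8.82 times background in hDE and 9.01 and 5.97 in hAFE, against 9.36 in hPFE. For lost regions it was 11.8 and 19.5 in hESC, and among those with a peak there 6.11 and 13.9 at the hDE stage and 10.4 and 6.75 at the hAFE stage. The replicates of a stage differed by as much as the stages did.

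Both classes lay away from gene starts. Distances used 1 RefSeq start per protein-coding gene, the first listed, leaving out chromosome 8, for which no starts were used here. Such a start was within 1 kb of 0.801% of gained, 1.58% of lost and 49.5% of stable regions, against 9.51% of all regions. Regions near only another start of a gene are not in these shares. Gained regions were a median of 66.8 kb from the nearest end of a gene and lost regions 53.7 kb, against 38.9 kb for all regions. A gene body was overlapped by 46.4% of gained, 44.2% of lost and 77.4% of stable regions, against 51.4% of all regions. Gained regions were the narrowest, with a median of 471 bp, against 623 bp for lost, 1109 bp for stable and 612 bp for all regions. Each region joins the overlapping strict intervals of all 7 libraries, so its width also depends on how many were joined. That part of the difference was not tested.

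At gene starts, hPFE opened few and mostly CpG-poor promoters. Of 22132 starts, 69 (0.312%) were covered by a gained region and 116 (0.524%) by a lost one, while 12498 were covered by a stable region. The windows at gained starts had a median of 42.7% G and C and 3 CpG, those at lost starts 55.7% and 7, and those at stable starts 66.3% and 27. The 69 gained starts belong to 68 genes. The examples named here were picked after their values were seen. SERPINB7, an epidermal serine protease inhibitor, stood at 30.7 times background in hPFE and SCEL (sciellin), a protein of the cornified envelope, at 28.6. SERPINB7 had no peak in any other library, whereas SCEL had summits of 3.93 and 13.4 in hDE and 9.91 and 9.87 in hAFE. SPRR1B and SPRR3, further cornified envelope proteins, stood at 9.19 and 6.71 times background in hPFE. SPRR1B also had summits of 3.28 in hDE replicate 1 and 6.31 and 9.35 in hAFE. The start of LCE3A, a late cornified envelope protein, went the other way, with 7.58 and 16.2 in hESC and no peak in hPFE. DST (dystonin), which anchors hemidesmosomes to keratin filaments in epithelia, stood at 10.4 in hPFE.

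Regulators of signalling were also among the gained starts, which need not be the only start of the gene. Those of SPRED2, RBPJ and GATA3 lie inside the gene. SMAD7, SPRED2, SHH, TGFB3, RBPJ and GATA3 each also had 1 stable region. SMAD7, the inhibitory SMAD of TGF-beta signalling, stood at 23.3 times background in hPFE, SPRED2, an inhibitor of the RAS to ERK pathway, at 15.7, and neither had a peak at that start in any other library. The start of SHH, the sonic hedgehog ligand made by foregut endoderm, had a summit of 13.4 times background in hPFE, with no peak in hESC or hDE replicate 1, 25.2 in hDE replicate 2 and 13.5 and 12.7 in hAFE. TGFB3, a TGF-beta ligand, stood at 12.4 in hPFE and 12.2 in hAFE replicate 2, and had no peak in the other 5 libraries. RBPJ, the DNA-binding partner of the Notch receptors, reached 17.1 in hPFE, at a start that had 7.21 and 6.49 in hAFE and no peak in hESC or hDE. GATA3, a transcription factor needed for parathyroid and thymus, stood at 21.6 in hPFE, at 21.2 and 20.5 in hDE and at 68.5 and 38.7 in hAFE, so that this start was open from hDE onward.

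The AP-1 letters were far more frequent at gained starts than at other starts. TGANTCA, the site bound by FOS and JUN proteins, was present in 46.4% of the windows at gained starts (32 of 69), against 4.31% at lost starts (5 of 116), 3.58% at stable starts and 6.15% at all 22132 starts. Among windows with less than 50% G and C, 45.1% of 51 gained starts held the letters, against 5.41% of 37 lost starts, 8.77% of 570 stable starts and 12.4% of 3230 starts without a region. Of the 32 genes with a gained start that holds them, 19 have their first site within 100 bases before the start. At 13 of the 32 the start had a peak in no other library of the series. Where a start only had to be not strict in hESC to count as gained, 16.7% of 514 gained starts held the letters.

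**Figure D3:**
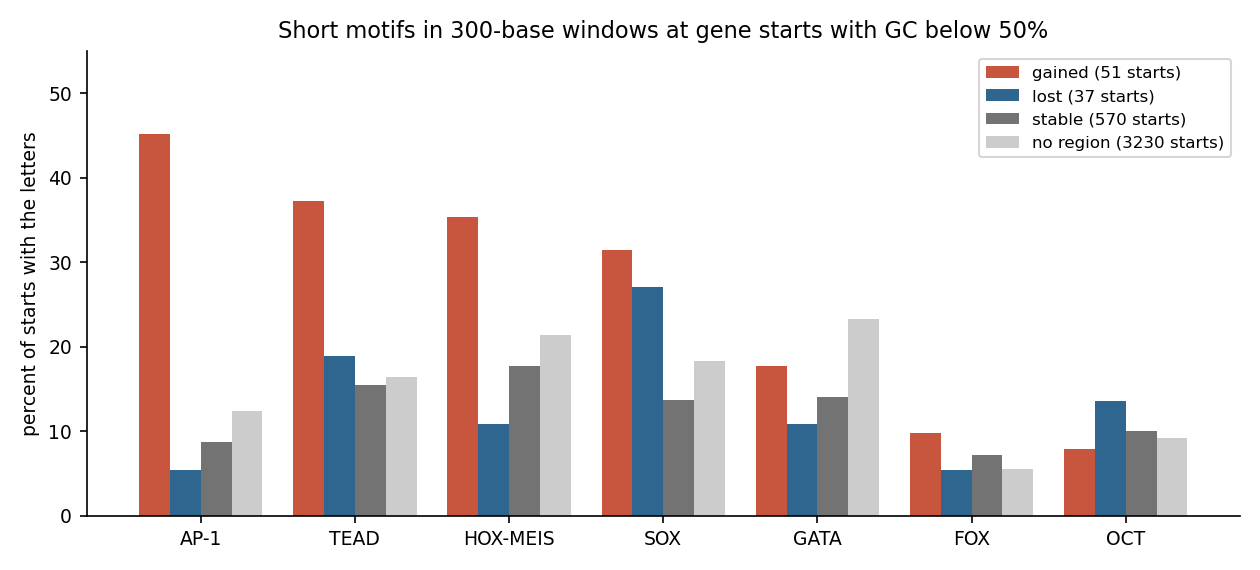
Percent of 300-base windows at gene starts (vertical axis) that hold each short motif on either strand, for gained, lost and stable starts and starts without a region, all with less than 50% G and C. AP-1 letters were in 45.1% of gained starts, against 5.41% of lost starts.

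The other motifs are given for windows with less than 50% G and C as well, since base composition differed between the classes. TEAD letters were in 37.3% of gained starts with less than 50% G and C, against 18.9% of lost starts and 16.3% of starts without a region. SOX letters were in 31.4% of gained and 27.0% of lost starts of that kind, against 18.3% of starts without a region. HOX-MEIS letters were in 27.5% of all gained starts and 7.76% of all lost starts, and among windows with less than 50% G and C in 35.3% of gained, 10.8% of lost and 21.3% of starts without a region. TGATTCA is a match to both HOX-MEIS and AP-1. Without the shared letters, the shares over windows of any composition were 13.0% of gained, 6.90% of lost and 5.70% of all starts. GATA letters were in 14.5% of gained, 8.62% of lost and 7.88% of all starts, FOX letters (TGTTTAC) in 10.1%, 2.59% and 2.85% in that order, and OCT letters in 7.25%, 6.90% and 3.82%. With less than 50% G and C the order of gained starts and the other starts turned for GATA, with 17.6% of gained starts against 23.3% of starts without a region, and for OCT, with 7.84% against 9.20%. FOX letters were then in 9.80% of gained starts, against 5.51%. The E-box (CANNTG) was in 78.3% of gained and 75.0% of lost starts and in 65.1% of all, and the short CTCF core (CCCTCT) in 31.9%, 59.5% and 51.6%. With less than 50% G and C the E-box was in 80.4% of gained starts and 79.3% of starts without a region. TATA letters, added to the list later, were in 24.6% of gained and 11.2% of lost starts, but among windows with less than 50% G and C in 31.4% of gained starts and 30.8% of starts without a region.

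The 116 lost starts belong to 109 genes, NANOG among them, while SOX2 kept a peak within 1 kb of its start in hPFE. The genes described here were picked after their values were seen. NANOG had a summit of 9.48 and 25.8 times background at its start in the hESC libraries and 6.55 and 13.9 at the hDE stage, and no peak covered the start in hAFE or hPFE. ZFP42 (REX1), a zinc finger protein of pluripotent cells, stood at 34.6 and 39.2 in hESC and at 9.17 and 27.3 in hDE. Only hAFE replicate 1 kept a peak, of 6.76, and hPFE had none. DPPA4, a developmental pluripotency protein, stood at 16.6 and 23.8 in hESC, at 12.01 and 26.1 in the hDE libraries, and had no peak at that region in hAFE or hPFE, although within 1 kb of the start hAFE had peaks of 15.8 and 7.53. ZSCAN10, a zinc finger partner of OCT4 and SOX2 known from mouse stem cells, had no peak in hPFE, against 15.2 and 25.8 in hESC. ZSCAN10 kept 6.11 and 8.94 at the hDE stage and 5.71 in hAFE replicate 2. The regions at all 4 starts thus kept a peak in both hDE libraries, while the lack of one in hPFE is fixed by the rule.

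The lost starts included genes known from meiosis or the germline, of which 5 are given as examples picked after their values were seen. No count of such genes was made, among the lost starts or over all starts. MEI4, needed for meiotic DNA breaks, had 36.5 and 38.3 times background in hESC, and SPO11, the enzyme that makes those breaks, 8.53 and 13.6. TDRD5, a tudor protein of the piRNA pathway, had 12.3 and 19.0, PGK2, the testis form of phosphoglycerate kinase, 13.3 and 15.6, and MAGEB1, a cancer-testis antigen, 14.7 and 15.8. The last of these had no peak in any hDE or hAFE library, whereas MEI4 and TDRD5 had one in all 4. The lack of a peak in hPFE at the 5 starts is fixed by the rule for lost regions.

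Single neural factors had a lost start, while all 5 neural markers with a start (PAX6, SOX1, LHX2, ZIC1 and POU3F2) had a peak within 1 kb of it in hPFE, of 6.01 to 26.0 times background. The lost start of OTX2, a head organiser factor that primed stem cells express too, lies inside the gene, which also had 1 stable region. That start reached 15.2 and 37.0 in the stem cells, 35.2 and 29.3 at the hDE stage and 19.4 and 13.2 at the hAFE stage, and hPFE lacked a peak. SOX3, close kin of SOX2, reached 16.1 and 19.9 in the stem cells, 5.68 and 12.7 at the hDE stage and 32.0 and 25.5 at the hAFE stage, and hPFE again lacked one. RFX4, a factor of the neural tube, had 22.7 and 51.5 in hESC only. One start of BMPR1B, a BMP receptor, had no peak in hPFE, against 10.4 and 24.03 in hESC. It lies inside the gene, more than 100 kb from both ends, and is not among the 18 regions assigned to that gene by distance. Those counted 5 gained and no lost ones. VCAM1, a cell adhesion molecule, had 22.3 and 19.3 in hESC and kept a peak in all 4 intermediate libraries before having none in hPFE.

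Around pluripotency genes, losses outnumbered gains, against the trend of the genome. Each region was given to the protein-coding gene whose start or end lay closest, up to 100 kb away. Regions inside a long gene but more than 100 kb from both of its ends were thus not counted at that gene. This rule placed 89917 regions at 17805 of 19974 protein-coding genes, with 11.6% gained and 6.07% lost. Without hESC replicate 1 or 2 the share lost was 12.2% or 10.6%, since a region then had to be strict in 1 stem cell library only. The 40 accessory pluripotency genes had 36 lost and 22 gained of 318 regions, which is 11.3% and 6.92%. Their share lost lay above that of all genes under each of the 11 alternative settings tried, and their share gained below it. Without hESC replicate 1 or 2, 19.2% or 14.2% of the regions of this list were lost. The list held 97 strict regions in hPFE, against 138 and 149 in hESC.

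Within the list, 18 of the 40 genes had a lost region and 15 a gained one. OTX2 had 5 lost and 2 gained, TRIM71, an RNA-binding repressor that keeps stem cells undifferentiated, 4 and 1, and MYCN 3 and 1. DPPA4 and SFRP2, a secreted WNT antagonist, had 3 lost and none gained, and DPPA2 2 and none. KLF4 and KLF5 went the other way, with 2 gained and none lost each. KLF5, a factor of many epithelia, had its strongest gained region inside the gene, at chr13:73056128-73056545, with a summit of 24.6 times background in hPFE and no peak in any of the other 6 libraries.

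The core factors differed from each other. NANOG had no strict region in hPFE, against 3 and 3 in hESC, and its strongest lost region (chr12:7787490-7788159, 1243 bp outside the gene) reached 16.1 and 39.4 times background in the hESC libraries, then 4.80 and 6.68 at the hDE stage and 9.46 and 3.90 at the hAFE stage. POU5F1 had 3 strict regions in hPFE, against 3 and 4 in hESC, but of its 7 regions 2 were gained, 2 lost and none stable. Its strongest lost region (chr6:31171679-31172785, 997 bp outside the gene) had 26.5 and 48.9 in hESC, 3.93 in hDE replicate 1 and 13.1 in hAFE replicate 1. Its strongest gained region (chr6:31203315-31203877) had 15.7 in hPFE and 10.4 and 4.94 in hAFE. SOX2, which foregut endoderm also uses, had 3 strict regions in hPFE, against 5 and 9 in hESC, with 1 gained and none lost.

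**Figure D4:**
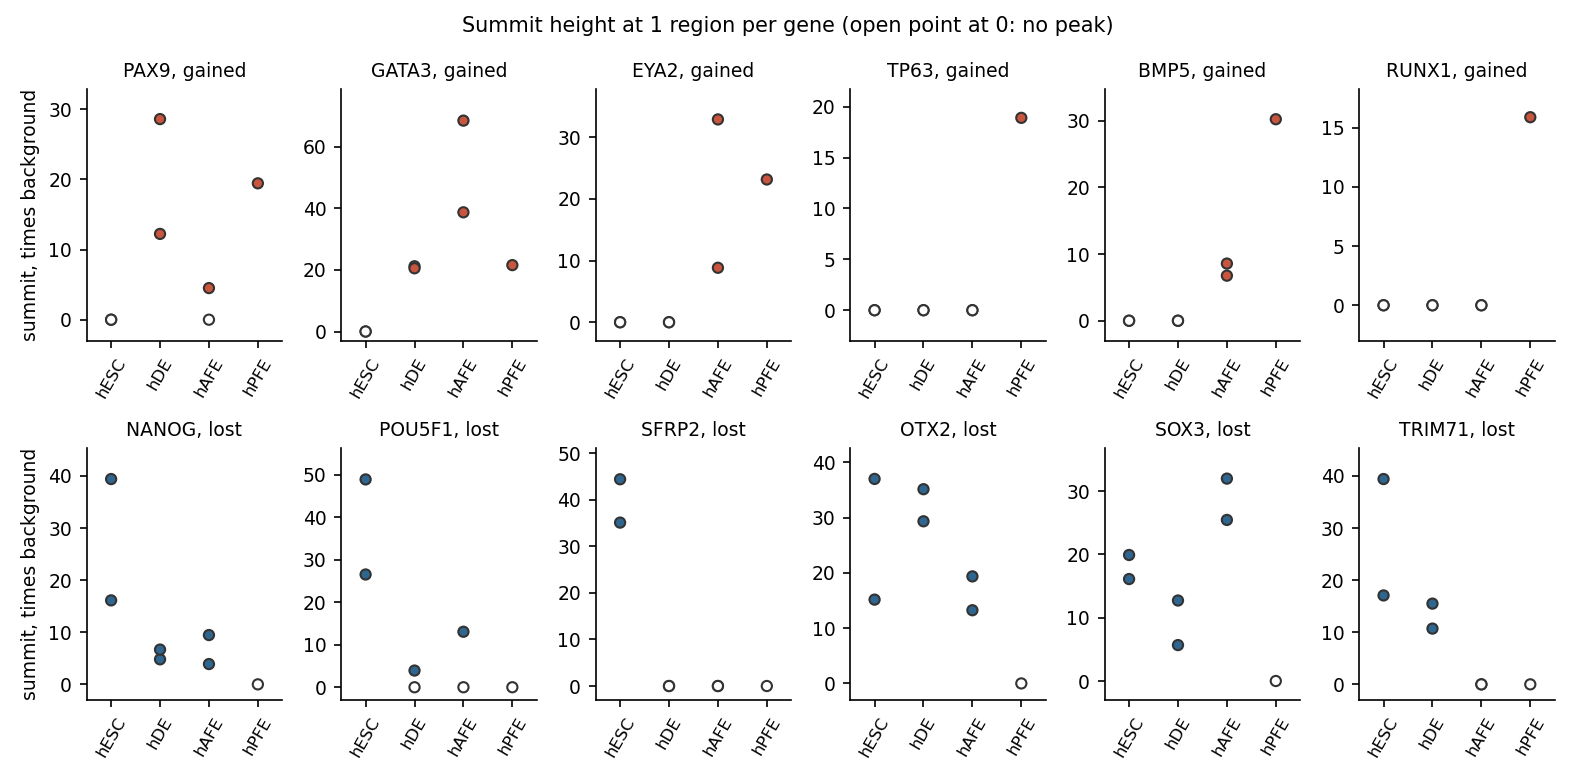
Summit height in times background (vertical axis) at 1 region per gene, for gained regions in the upper panels and lost regions in the lower panels, each the strongest of its class at that gene, with 1 point per library and the stages in order on the horizontal axis. Open points at 0 mark libraries without a peak. TP63 and RUNX1 have a point above 0 in hPFE alone and SFRP2 in hESC alone.

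At SFRP2 the strongest lost region (chr4:153789912-153790564, 829 bp outside the gene) stood at 35.1 and 44.4 times background in hESC and was without a peak in the other 5 libraries. TRIM71 showed 17.1 and 39.4 in the hESC libraries and 10.7 and 15.5 at the hDE stage at an intragenic region (chr3:32844006-32844574), with none in hAFE or hPFE. At both regions the lack of a peak in hPFE is part of the rule that chose them.

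A microRNA cluster of stem cells lost its open region. The miR-302 and miR-367 microRNAs are made from 1 transcript in pluripotent cells and keep them cycling and undifferentiated, whereas let-7 microRNAs accumulate as cells differentiate. Of 1558 hairpins, 22 (1.41%) had a lost region within 1 kb and 24 (1.54%) a gained one. These hairpins lie at 18 lost and 24 gained regions, since the 5 hairpins of the MIR302 and MIR367 cluster share 1. The region beside the MIR302 and MIR367 hairpins (chr4:112648617-112649256) reached 24.2 and 34.2 times background in the stem cells, 39.5 and 33.1 at the hDE stage and 6.76 and 8.57 at the hAFE stage, while hPFE had no peak there. These loci were picked after the values were seen. The mature sequences below have their seed, bases 2 to 8, in capitals: the 4 miR-302 members share the seed AAGUGCU, and miR-367 has AUUGCAC.
hsa-miR-302a-3p: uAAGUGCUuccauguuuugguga
hsa-miR-302b-3p: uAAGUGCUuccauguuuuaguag
hsa-miR-302c-3p: uAAGUGCUuccauguuucagugg
hsa-miR-302d-3p: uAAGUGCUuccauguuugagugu
hsa-miR-367-3p: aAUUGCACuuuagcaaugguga
hsa-let-7a-5p: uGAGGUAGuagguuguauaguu

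The let-7a-2 hairpin had a gained region beside it (chr11:122145904-122146246), with a summit of 6.54 times background in hPFE and no peak in any other library. Further lost regions lay at MIR135B, with 26.5 and 66.7 times background in hESC and no peak elsewhere, at MIR92B, with 23.7 and 52.2, and at MIR9-2, a brain microRNA, with 13.7 and 24.5. The region at MIR9-2 is the same one that was the strongest lost region counted at MEF2C, a factor of heart and muscle.

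Pharyngeal endoderm factors had a share gained near that of all genes and a share lost below it. The 36 genes of the list had 54 gained and 17 lost of 403 regions, 13.4% and 4.22%, against 11.6% and 6.07% of all genes, with 163 strict regions in hPFE, against 122 and 128 in hESC. The share lost lay below that of all genes under all 11 alternative settings and the share gained above it under 10 of them. The share lost was 9.68% without hESC replicate 1. Gains fell on 22 of the 36 genes and losses on 13. Of the 54 gained regions, 24 had a peak in both hAFE libraries and 6 in both hDE libraries, while 21 had none in any of the 4.

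The factors that define the tissue were not all alike. PAX9 had 4 gained regions and none lost, with 9 strict regions in hPFE, against 4 and 3 in hESC, and within 1 kb of its start a peak in hPFE alone, at 8.83 times background. Its strongest gained region (chr14:36773542-36774038, 94180 bp outside the gene) stood at 19.4 in hPFE, 12.2 and 28.6 in hDE and 4.50 in hAFE replicate 1. PAX1, its partner in the pouches, had 3 gained and none lost. EYA2, a phosphatase and transcriptional coactivator, led the list with 8 gained and 1 lost, and an intragenic region (chr20:47139878-47140436) stood at 23.1 in hPFE, where no peak was found in hESC or hDE, while hAFE had 32.9 and 8.83.

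Several other defining factors had no gain by this rule. TBX1 and HOXA3 had neither a gained nor a lost region, with 2 and 3 strict regions in hPFE, against 0 and 0 for TBX1 and 2 and 2 for HOXA3 in hESC. EYA1 had 2 strict regions in hPFE, against 6 and 5 in hESC, with 1 region lost, and NKX2-3 had 5, against 4 and 5, also with 1 lost. At the start of TBX1 the summit within 1 kb was 13.3 times background in hPFE, against no peak and 8.87 in hESC. At that of NKX2-3 it was 28.3, against 9.00 and 26.8. The 8 pharyngeal markers together had 42 strict regions in hPFE, against 26 and 26 in hESC.

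TP63, the p53 relative that maintains stratified and thymic epithelium, had 10 strict regions in hPFE, against 2 and 3 in hESC, with 4 gained and 1 lost. The strongest (chr3:189572063-189572790, 23956 bp outside the gene) stood at 18.9 times background in hPFE and had no peak in any other library. Among the 19 thymus and parathyroid genes, 14 regions were gained and 6 lost of 111, 12.6% and 5.41%, near the shares of all genes. GATA3 had 3 of the gains and 1 of the losses.

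The general endoderm factors showed few losses and a modest number of gains. The 16 genes had 12 gained and 2 lost of 151 regions, 7.95% and 1.32%, so that the share gained was below that of all genes. Where a region only had to be not strict in hESC to count as gained, it was 23.8%, against 18.5% of all genes. That was the 1 of 11 alternative settings where it lay above. Their strict regions numbered 56 in hPFE, against 30 and 39 in hESC, while the hDE libraries had 82 and 58. The share lost was 8.61% without hESC replicate 1, still below that of all genes. GATA6, a factor of early endoderm, had 3 gained, and FOXA2, SOX17 and GATA4 had neither gained nor lost regions. FOXA2 had 5 strict regions in hPFE, against 2 and 6 in hESC, and SOX17 1, against 3 and 2. The gained region of GATA6 (chr18:22106511-22107103) stood at 16.4 in hPFE, 9.61 and 17.5 in hDE and 22.1 and 7.79 in hAFE.

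Genes of anterior foregut, lung and thyroid had 24 gained and 6 lost of 204 regions, 11.8% and 2.94%, against 11.6% and 6.07% of all genes. Without hESC replicate 1 or 2 the share lost was 13.7% or 6.86%, against 2.94% with both. FOXP1, a forkhead factor of lung and foregut, had 4 gained, FOXP4 1 gained and 1 lost, IRX2 4 gained and IRX3 1 lost. A FOXP1 region (chr3:71026534-71027459) stood at 14.7 in hPFE, with 3.28 and 21.5 in hDE and 23.9 and 37.7 in hAFE. The IRX2 region (chr5:2757938-2758368) had 14.7 in hPFE and no peak elsewhere. All 6 regions lost in this list had a peak in both hDE libraries.

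In epithelial genes gains outnumbered losses by more than over all genes. Their 24 genes had 30 gained and 3 lost of 188 regions, 16.0% and 1.60%, and their strict regions numbered 98 in hPFE, against 52 and 76 in hESC. The share gained was above that of all genes and the share lost below it under all 11 alternative settings. Leaving out hESC replicate 1 gave a share lost of 9.04%. Gains fell on 17 genes: TJP1, a scaffold protein of tight junctions, had 5, GRHL2, a master factor of epithelial identity, 4, PKP2, a desmosome plaque protein, 3, and EPCAM and OCLN 2 each. CDH1 (E-cadherin) had 1 gained and 1 lost. A region inside SPINT1 (chr15:40845516-40846297), a protease inhibitor of epithelia that also had 1 lost region, stood at 35.7 in hPFE, 7.42 and 8.19 in hDE and 59.5 and 23.6 in hAFE.

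In mesenchymal genes the share gained was above that of all genes under all 11 alternative settings. The 31 genes had 50 gained and 12 lost of 277 regions, 18.1% and 4.33%, with gains at 19 of them. The share lost was 10.47% without either hESC library. CDH2 (N-cadherin) had 9 gained and 1 lost, COL5A1, CDH11 and FBN1 4 each with 1, 0 and 1 lost, and FN1, VIM, POSTN and MEOX2 3 each. The CDH11 region (chr16:65196003-65196806) stood at 35.2 times background in hPFE and 19.4 and 13.2 in hAFE. The defining mesenchymal markers did not move together: the 8 of them had 22 strict regions in hPFE, against 22 and 18 in hESC, TWIST1 and COL1A1 had no gained region, and the start of PDGFRB stood at 6.01 in hPFE, against 14.2 and 26.2 in hESC. The part of another cell type in these gains was not tested.

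Surface ectoderm genes had 18 gained and 10 lost of 90 regions, 20% and 11.1%, both above the shares of all genes under all 11 alternative settings. TP63 and GRHL3, a factor of barrier formation, had 4 gained each, GATA3 3, and TFAP2B, which is needed in the face, 2. TFAP2A had 2 gained and 3 lost, and its strongest lost region (chr6:10314969-10315645) had no peak in hPFE, against 28.9 and 40.9 in hESC. Keratin genes of stratified layers did not add to the count: KRT5, KRT14 and KRT15 had no gained or lost region.

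**Figure D5:**
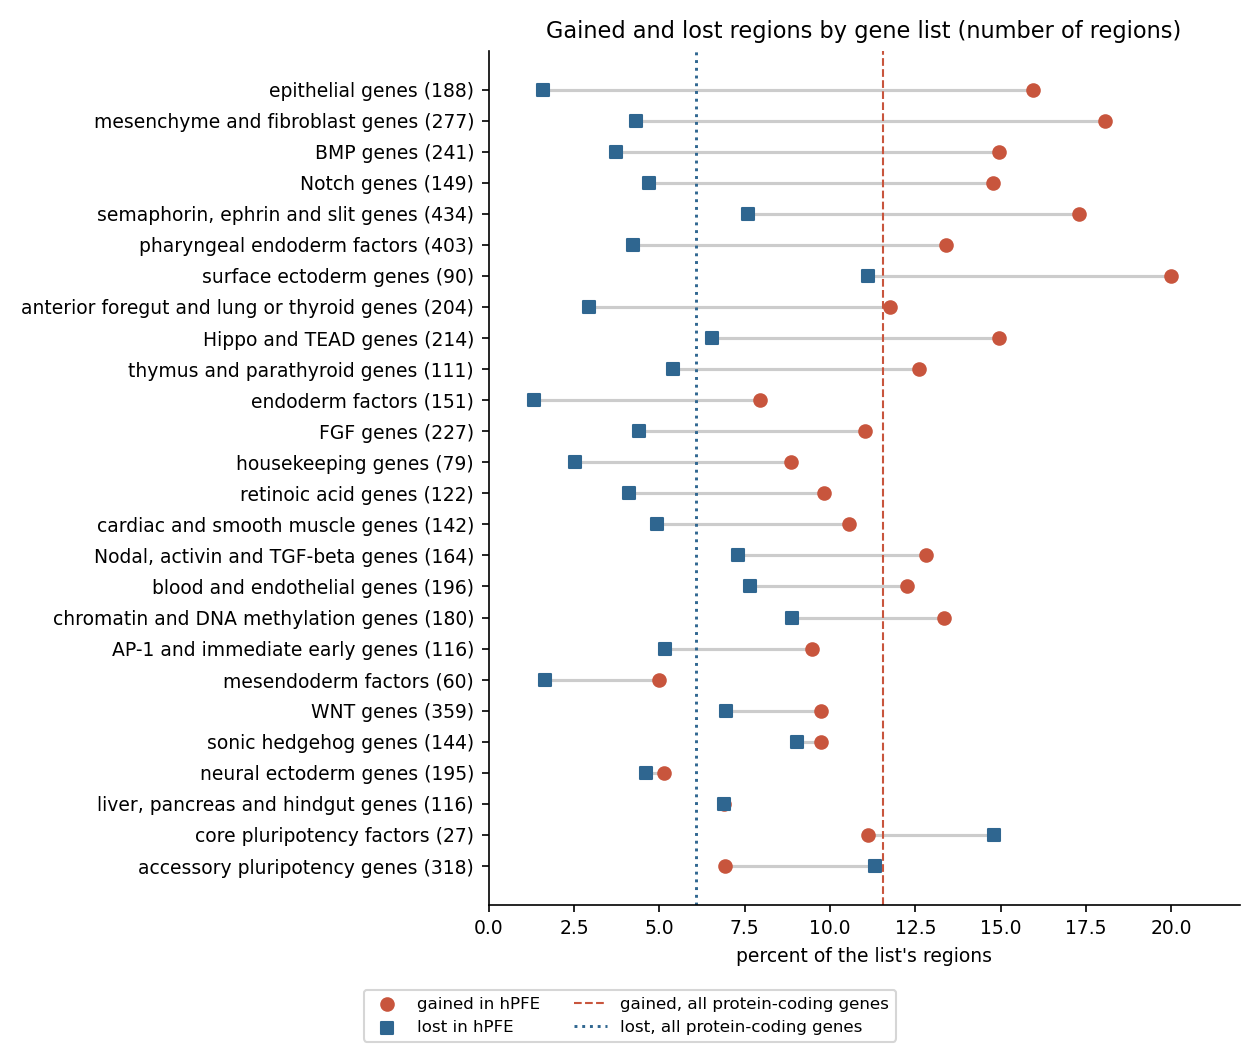
Percent of the regions assigned to each of 26 gene lists (number of regions in brackets) that were gained (red circles) or lost (blue squares) in hPFE, with the values over all protein-coding genes as vertical lines at 11.6% and 6.07%. Lists are ordered by the difference: epithelial genes are at the top and the pluripotency lists, where losses exceed gains, at the bottom.

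Among secreted ligands and receptors, BMP genes had a share gained above that of all genes. BMP proteins pattern the ventral foregut, and their 24 genes had 36 gained and 9 lost of 241 regions, 14.9% and 3.73%, the share gained being above that of all genes under all 11 settings. Without hESC replicate 1 or 2, 7.47% or 6.64% of these regions were lost. Of the ligands, BMP5 had 7 gained and none lost, BMP4 and BMP7 2 and none, and BMP6 1 and 2. The receptor BMPR1B had 5 gained, and the target genes MSX2 and ID4 4 and 3, while NOG and SMAD9 had only lost regions, 1 and 2. The BMP5 region (chr6:55734169-55734903) stood at 30.2 in hPFE, 6.76 and 8.57 in hAFE and had no peak in hESC or hDE.

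Genes of Nodal, activin and TGF-beta signalling, the pathway that keeps human stem cells pluripotent and drives endoderm, had 21 gained and 12 lost of 164. Those shares were 12.8% and 7.32%, against 11.6% and 6.07% of all genes. The ligand TGFB2 and the activin antagonist FST had 5 gained and 2 lost each, the ligand INHBB had 2 lost and none gained, and NODAL, LEFTY1 and LEFTY2 had neither. SMAD3, the signal transducer, had 3 gained, with 32.2 times background in hPFE at chr15:67178520-67179233, where hDE had 7.64 and 10.3 and hAFE 22.1 and 3.38.

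FGF genes had 25 gained and 10 lost of 227, retinoic acid genes 12 and 5 of 122, WNT genes 35 and 25 of 359 and sonic hedgehog genes 14 and 13 of 144. The WNT share gained, 9.75%, and the hedgehog share gained, 9.72%, were below that of all genes under all 11 settings. In the hedgehog list most of both fell on 3 genes: GLI2, a transcriptional mediator, had 3 gained and 5 lost, HHIP, the decoy receptor, 4 and 3, and GLI3 4 and 1. A GLI2 region (chr2:120785841-120786977) stood at 16.1 and 47.0 in hESC and had no peak in the other 5 libraries. Among WNT genes, SFRP1 and ROR1 had 3 gained and 1 lost each, ROR2 2 and 3, and FZD2 only 2 lost. FGFR1 had 1 gained and 3 lost, and FGFR2, the receptor of epithelia, 3 gained and none lost.

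Notch genes had 22 gained and 7 lost of 149 regions, 14.8% and 4.70%, against 11.6% and 6.07% of all genes. The share gained lay above that of all genes under 10 of 11 alternative settings and was 2.78% with genes within 20 kb. Most gains lay at the nuclear components of the pathway. RBPJ had 8 gained and 1 lost of 20 regions, and its coactivators MAML2 and MAML3 4 gained each, of 14 and 15. The receptors NOTCH1, NOTCH2 and NOTCH3 had fewer regions, 4, 8 and 6, with 0, 1 and 0 gained. Of the targets HEY1 had 3 gained and HEY2 2 lost. Hippo genes had 32 gained and 14 lost of 214, 15.0% and 6.54%. AMOTL1, a junctional partner of YAP, had 6 gained, WWC1 4, and YAP1, WWTR1, LATS2 and VGLL3 3 each, while TEAD1 had 1 and TEAD2, TEAD3 and TEAD4 none.

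Guidance genes of the semaphorin, ephrin and slit families, which steer cells and axons, had 75 gained and 33 lost of 434 regions. Those shares were 17.3% and 7.60%, against 11.6% and 6.07% of all genes. EFNA5 had 9 gained and 5 lost, SEMA3D 8 and none, EPHA4 7 and 2, SEMA3A 6 and 1, PLXNA4 6 and 3 and SEMA3C 5 and none. PLXNA4 illustrates an exchange within 1 gene: a region outside it (chr7:132065545-132066403) stood at 26.3 in hPFE and 3.604 and 4.16 in hAFE, and one inside it (chr7:132188072-132188815) at 16.1 and 48.7 in hESC and 4.37 in hDE replicate 1.

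Lists of other tissues are set against the 11.6% gained and 6.07% lost over all genes. Neural ectoderm genes had 10 gained and 9 lost of 195, 5.13% and 4.62%, with 56 strict regions in hPFE, against 83 and 88 in hESC. Their share lost was 15.4% or 13.3% without hESC replicate 1 or 2, against 4.62% with both. Liver, pancreas and hindgut genes had 8 and 8 of 116, 6.90% and 6.90%. Cardiac and smooth muscle genes had 15 and 7 of 142, 10.6% and 4.93%. Blood and endothelial genes had 24 and 15 of 196, 12.2% and 7.65%, and mesendoderm factors 3 and 1 of 60, 5% and 1.67%. Chromatin and DNA methylation genes had 24 and 16 of 180, 13.3% and 8.89%. Of these genes DNMT3A had only losses, 2, and HMGA2, a chromatin protein of embryonic cells, 8 gained and 1 lost. AP-1 and immediate early genes had 11 and 6 of 116 regions, 9.48% and 5.17%, of which BATF had 3 gained. The 28 housekeeping genes had 7 gained and 2 lost of 79 regions, 8.86% and 2.53%, and 33 of the 79 were stable. Within the cardiac list MYOCD, a coactivator of smooth muscle genes, had 8 of the 15 gains, and within the blood list RUNX1 had 10 of the 24.

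The genes with the most changed regions were not those of any 1 list. RUNX1 and UACA, a regulator of stress-induced apoptosis, had 10 gained regions each and no lost one, the most of 5860 genes with a gain. RUNX1 had 14 strict regions in hPFE, against 2 and 6 in hESC, while its start was open throughout, with 36.0 times background in hPFE, against 27.5 and 50.2. Its strongest gained region (chr21:34950609-34951321) stood at 15.9 in hPFE and had no peak elsewhere. STXBP6, PRICKLE2, FGD4, EFNA5, CDH2, PRAG1, CCDC85A, PDGFC and MAMDC2 had 9 gained each and MAP2 8. At MAP2, a microtubule protein, a region inside the gene (chr2:209495839-209496483) reached 38.3 in hPFE, with 7.53 in hAFE replicate 2 and no peak in the other 5 libraries.

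Lost regions were spread more thinly, with at most 7 at 1 gene and 4062 genes with any. TDRD3 and PRR16 had 7 lost and 1 gained each. THRB, a thyroid hormone receptor, had 6 and 2, AMPH and MGST2 6 and 1 each, CCDC85A 6 and 9, and CLYBL, GLI2, CDH26, PRDM11, NEK7 and CELF4 5 lost each. TDRD3 had 3 strict regions in hPFE, against 13 and 10 in hESC, and AMPH 3, against 13 and 12. The strongest lost region at CLYBL (chr13:99686742-99688099) reached 23.2 and 70.3 in the stem cells, 22.5 and 41.6 at the hDE stage and 9.01 and 3.38 at the hAFE stage.

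Gains and losses were found along the whole genome and were dense in a few windows. Of 2866 windows of 1 Mb, 2770 held a gained and 2626 a lost region, with medians of 6 and 3. The window around SEMA3D on chromosome 7 held the most gained regions, 23, with 2 lost, and the RUNX1 window on chromosome 21 held 22 gained and none lost. The most lost regions in 1 window were 14, beside 7 gained, on chromosome 7 around EPHB6 and TRPV6, and the MYCN window held 11 lost and 6 gained. Of regions more than 1 kb from the nearest end of a gene, 14.9% were gained and 7.29% lost. On chromosome 21 these shares were 19.0% and 4.94%, and on chromosome 19 they were 6.96% and 7.01%.

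Heights were compared only at regions strict in all 3 libraries, a choice that limits the change that can be seen and leaves out the 8521 regions strict in both hESC libraries and weaker in hPFE. The median of the log2 ratio of summit height at the 18647 stable regions was −0.21 for hPFE over hESC replicate 1 and −0.91 over replicate 2, and that of hESC replicate 2 over replicate 1 was 0.69, so the median differences reflect whole libraries and were set to 0. The SD of the log2 ratio was 0.60 and 0.60 for hPFE over the hESC replicates, against 0.47 between those replicates. With this choice 6 stable regions (0.0322%) were at least 4-fold higher in hPFE than in both hESC libraries, and 10 (0.0536%) at least 4-fold lower, where 1 region in each direction passed that size between the replicates. Against hESC replicate 2 alone 31 were higher and 37 lower, and against replicate 1 alone 42 and 51. With 100000 strict regions per library 127 were higher and 94 lower. The higher ones include a region near CYP24A1, the vitamin D 24-hydroxylase (chr20:54123357-54124152), with 49.1 times background in hPFE, against 12.3 and 16.2 in hESC. Another lies near AMN1 (chr12:31749093-31749802), with 35.7, against 8.06 and 11.9. Among the lower ones is the start region of HSPA2, a testis-enriched heat shock protein (chr14:64539932-64540946), with 8.66, against 40.3 and 80.3. A region near CACNG8 (chr19:53978003-53978798) had 9.72, against 53.6 and 118.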

How the data were processed

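ATAC-seq peak lists of 7 libraries, 1 for hPFE and 2 each for hESC, hDE and hAFE, were used as deposited, in build hg38 per the submitters' processing notes, which also name DiffBind. Peaks were called per library. The file names record trimming, removal of duplicates and of the mitochondrial genome, transposase cut sites, a p threshold of 0.01, at most 300000 peaks per list and one more filter whose meaning is not stated. The names of aligner and peak caller are not given in the sources used.

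Each deposited peak carries a fold enrichment over its local background, a ratio as made by the authors. It also carries −log10 p and −log10 q values, as deposited, which grow with depth, and a display score, as deposited, which was not used. Read totals are not in these lists, so the depth is known only as the background pileup.

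The summit pileup was solved from the fold and −log10 p of each peak (100% recovered within 0.001) and divided by the most frequent background of the library. Peaks of a library were merged, ranked by −log10 p and the top 50000 called strict. Those of the 7 libraries that overlapped by at least 1 bp were merged, on the 22 autosomes and X only. Genes and starts are those of RefSeq, protein-coding, with no starts on chromosome 8. Distances to a start used the first listed start of each of 15812 genes, and the promoter windows all 22132 starts. Of 532 listed genes, 530 matched by symbol, 1 by synonym and 1 not at all. The calculation was tested on simulated data.

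The members, gene lists and motifs were chosen with earlier results of these data known. Named genes were the 12 with the most gained and lost regions, in each list the 3 with the most of either, and a set of defining factors; others named, among them the gene starts, were chosen after their values were seen. With 1 hPFE library no test was made. Some genes of the lists are not reported here by name. Python 3.11.15, numpy 2.4.6, pandas 2.3.3 and scipy 1.17.1 were used.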

Additional observations from a re-analysis of the deposited data

How the results depend on the processing

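No paired analysis was possible because hPFE has 1 library. Of 98 values recomputed for the counts, the timing, the location and the heights, 38 stayed close to the values given and 60 moved, and the cause was not tested. Regions defined from the 3 libraries compared moved none of them, and an overlap of 0.5 of the shorter interval only the share of gained regions without a peak in hDE and hAFE, to 47.8%.

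The counts followed the number of strict regions. With 25000 per library 6288 regions were gained, 2325 lost and 10552 stable, and with 100000 there were 43377, 23835 and 32590. At −log10 q of at least 5 there were 37738, 18593 and 28879. With summits of at least 10 times background 7818 were gained, close to the 7284 lost. Where absent meant not strict, 26505 were gained and 17103 lost. Leaving out either hESC library gave 19585 to 20532 gained, 15871 to 15906 lost and 20688 to 20800 stable.

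The share of gained regions without a peak in hDE and hAFE was 39.5% with 25000, 54.6% with 100000, 41.1% by summit, 53.4% by q and 33.9% where absent meant not strict, and 41.0 to 43.7% without either hESC library. The share of lost regions with a peak in all 4 was 57.1% with 25000, 35.3% with 100000, 37.5% by q and 67.8% where absent meant not strict, and 37.5 to 39.7% without either hESC library.

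Near a gene start lay 0.541% of gained regions with 25000, 1.07% with 100000, 1.401% by summit, 0.988% by q and 2.20% where absent meant not strict, and 0.909 to 0.962% without either hESC library. Of lost regions it was 3.54% by summit, 3.55% where absent meant not strict and 1.45 to 1.51% without either hESC library. Of stable regions it was 65.0% with 25000, 33.2% with 100000, 57.0% by summit, 36.5% by q and 45.6 to 46.7% without either hESC library. The share of starts with the AP-1 letters among gained starts was 16.7% of 514 where absent meant not strict and 59.1% of 22 with 25000. Within 500 bp of a start the shares were 0.452%, 1.05% and 48.4% of gained, lost and stable regions, and within 2000 bp 1.69%, 2.64% and 51.0%.

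Stable regions 4-fold higher and lower numbered 0 and 0 with 25000, 127 and 94 with 100000, 2 and 3 by summit and 72 and 79 by q. Without either hESC library 31 to 42 were higher and 37 to 51 lower. The hPFE list has the lowest heights and no replicate, and a missing peak can be one too weak for its list.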
